A study of Mus musculus with 8 samples.

Results

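The control uterus was set against the 3 treated uteri, a comparison of 1 library with 3 that uses 4 of the 8 libraries of the series. All animals were female CD-1 mice, an outbred stock, ovariectomized at 6 weeks of age and left for 1 week to recover. The control group received neither agent, the second bisphenol A (BPA) at 200 mg/kg/day, the third Korean red ginseng (KRG, a steamed root preparation) at 1.2 g/kg/day, and the fourth both agents at these doses, by mouth for 7 days. Each library was made from 500 ng of total RNA with a QuantSeq kit, which reads the 3′ end of polyadenylated transcripts. Whether 1 animal or a pool stands behind a library is not in the labels, and the other 4 libraries are from liver under the same treatments. BPA, a building block of polycarbonate plastics, acts on estrogen receptors, and the series asks how ginseng bears on its influence in these tissues. The 3 treated libraries are 3 different treatments, so they are not replicates, and the spread among them is a spread between treatments and between animals together.

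The uterine lining is a simple epithelium with glands that open into the lumen, lying on a collagen-rich stroma and surrounded by smooth muscle. Its glands and surface cells secrete mucins, antimicrobial proteins and protease inhibitors, and several of these genes, lactotransferrin (Ltf) among them, are classical estrogen-induced genes of the rodent uterus. Ovariectomy removes the main source of estrogen, and the epithelium and glands regress afterwards. Fibrillar collagens are made mainly by stromal fibroblasts. Hoxa10 and Hoxa11, which mark the identity of the uterus along the female tract, were present in all 4 uterus libraries at 101 to 145 and 76.2 to 122 CPM (counts scaled to library size) and at 0 CPM in the control liver.

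The secretory genes that stood higher in the control library included Wfdc18, Slpi, Fcgbp and Cxcl15, and the 250 bases before their starts are shown because these members differed together and the windows overlap no annotated exon. The sequences are RefSeq promoter entries on GRCm38.p6, read 5′ to 3′ on each gene's own strand, and capitals mark matches to TATAAA, the core of the TATA box, on either strand. The windows lie at chr11:83708754-83709003 (plus strand, Wfdc18), chr2:164356508-164356757 (minus strand, Slpi), chr7:28070986-28071235 (plus strand, Fcgbp) and chr5:90794284-90794533 (plus strand, Cxcl15).
Wfdc18: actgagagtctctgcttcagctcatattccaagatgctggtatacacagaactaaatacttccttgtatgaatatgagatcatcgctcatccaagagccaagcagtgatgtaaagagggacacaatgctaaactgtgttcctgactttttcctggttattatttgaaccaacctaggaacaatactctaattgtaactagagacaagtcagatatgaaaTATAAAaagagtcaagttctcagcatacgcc
Slpi: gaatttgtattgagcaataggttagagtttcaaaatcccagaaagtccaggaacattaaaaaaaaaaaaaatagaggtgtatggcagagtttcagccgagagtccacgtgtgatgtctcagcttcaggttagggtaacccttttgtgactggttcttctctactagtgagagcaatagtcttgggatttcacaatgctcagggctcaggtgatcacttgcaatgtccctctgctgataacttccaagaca
Fcgbp: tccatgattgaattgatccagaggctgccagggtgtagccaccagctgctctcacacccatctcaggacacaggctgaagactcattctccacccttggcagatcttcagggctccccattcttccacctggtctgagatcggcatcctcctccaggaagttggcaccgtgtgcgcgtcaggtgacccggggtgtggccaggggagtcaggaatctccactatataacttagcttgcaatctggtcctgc
Cxcl15: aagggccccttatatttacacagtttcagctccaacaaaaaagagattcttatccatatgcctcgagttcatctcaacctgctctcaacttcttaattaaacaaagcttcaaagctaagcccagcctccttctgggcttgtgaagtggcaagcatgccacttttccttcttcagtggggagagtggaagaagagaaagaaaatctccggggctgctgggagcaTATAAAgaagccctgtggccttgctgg
TATAAA lay between bases -31 and -26 in Wfdc18 and between -27 and -22 in Cxcl15. Of the 84 genes called below, 59 had an entry, 29 of those higher and 30 of those lower in control. TATAAA was in 18.8% of the 32 windows of the higher genes and 7.32% of the 41 windows of the lower genes, beside 12.4% of all 32851 windows. A palindromic estrogen response element, the half-sites GGTCA and TGACC with 3 bases between them, was in no window of either group and in 0.0639% of all windows. The forkhead core TGTTTAC was in 3.13% and 2.44% of the higher and lower windows and in 3.17% of all, and CCAAT was in 25.0% and 26.8%, beside 33.9% of all. Both strands were searched for each motif. These are letter matches in short windows and describe no binding.

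The uterus libraries held 12990417 to 14797515 counts, of which the ribosomal RNA precursor Rn45s took 8.62% to 11.3%. They differed in transcripts of neighbouring or other tissues, given here as CPM summed over marker lists. Bladder urothelium markers summed to 442 CPM in control, 5960 in BPA, 143 in KRG and 10828 in the library given both; the uroplakin gene Upk1a stood at 89.3, 1610, 46.2 and 3194 CPM. Skeletal muscle markers summed to 120, 230, 108 and 1994 CPM, and adipocyte markers to 6297, 5970, 15343 and 5884 CPM. Squamous markers of vagina and cervix summed to 948 CPM in control and between 763 and 5192 in the treated libraries. The bladder and squamous sums were thus high in BPA and in the library given both, and the adipocyte sum in KRG. Squamous markers did not all follow their sum. Sprr1a did, at 53.3, 666, 8.64 and 1164 CPM in control, BPA, KRG and both, but Krt14 stood at 59.3, 31.9, 31.8 and 3.40 CPM. Transcripts made by hepatocytes went the other way. Alb, the albumin gene, stood at 234, 4.57, 434 and 2.11 CPM in control, BPA, KRG and both. Over 16 hepatocyte genes, chosen after these values were seen, the uterus level was a median 1.22% of the level in the liver library of the same treatment in control and 2.90% in KRG, but 0.0219% in BPA and 0.00775% in the library given both. Hoxa10, as a gene of the uterus itself, stood at 145, 119, 144 and 101 CPM. The bladder, skeletal muscle, adipocyte, squamous, erythroid and hepatocyte lists held no called gene, beside 0.913% of all genes. At that share, 0 says little about lists of these sizes. The rule given below also asks for a difference above the treated range, which was wide for Upk1a (6.08) and Alb (7.13). The plot of summed marker levels shows these lists beside those of the uterus itself.

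**Figure D1:**
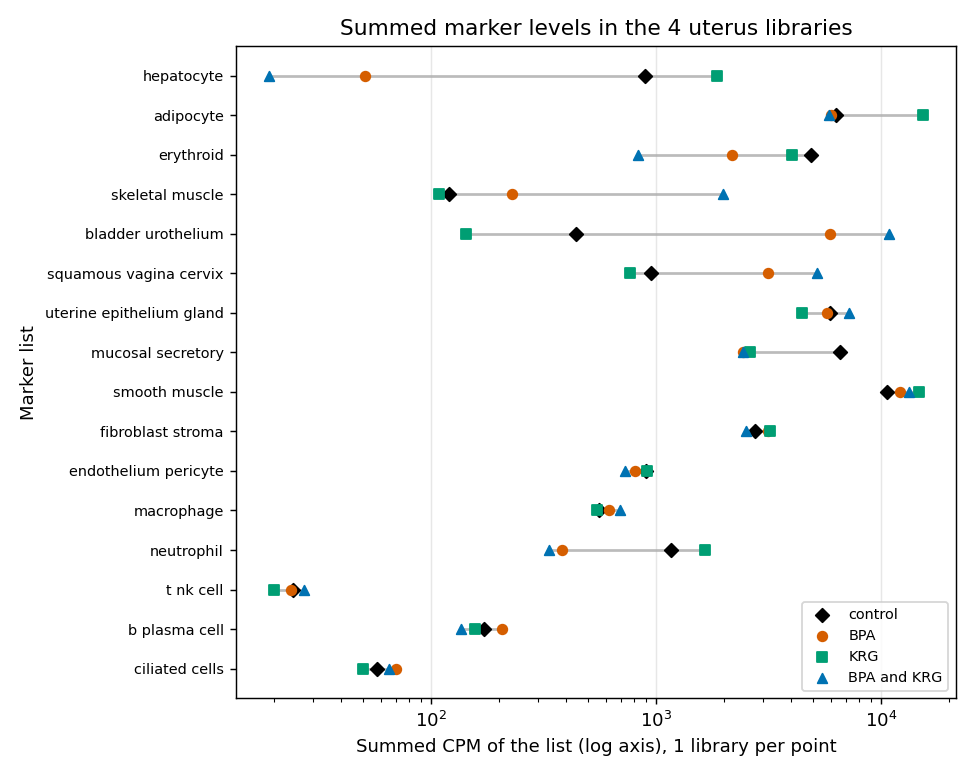
Summed CPM of marker lists (rows; log axis) in the 4 uterus libraries, 1 point per library. The control library (diamonds) lies apart from all 3 treated libraries in the mucosal secretory list, at 6590 CPM against 2425 to 2615, while the hepatocyte, bladder and squamous lists place control nearest to KRG.

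Values below are CPM scaled by the trimmed mean of M values. A difference is log2(CPM + 1) in control minus the mean of the 3 treated libraries, a scale that understates differences of low genes. It is read beside the range of the 3 treated libraries on the same scale. A gene was called when its difference was at least 1 in size and larger than that range, which places control outside the treated libraries. Among the 9198 genes whose mean over the 4 libraries reached 10 CPM, 42 (0.457%) were higher and 42 (0.457%) lower in control by this rule, 84 in all (0.913%). Control lay above all 3 treated libraries for 22.5% of genes and below all 3 for 21.6%. With total count scaling in place of the trimmed mean, 50 genes were higher and 31 lower. The level filter favours differences, since 13 of the 42 higher genes had a treated mean under 10 CPM and 15 of the 42 lower genes had a control value under 10 CPM. edgeR's quasi-likelihood test of 1 against 3, which treats the 3 treatments as replicates, called no gene at an adjusted p of 0.05 (smallest adjusted p 0.318). At an unadjusted p under 0.05 it had 165 genes (1.79%), 69 of the 84 among them, and DESeq2's Wald test called 23 genes after adjustment, among them Tff1, Muc5b, Agr2, Wfdc18, Slpi, Ltf, Fcgbp, Cfb and Col1a1. An exact permutation test of a single gene, 1 against 3, cannot go below 0.25 and was therefore not used. DESeq2's test likewise treats the 3 treatments as replicates, and in both tests the single control library adds nothing to the measured spread. The differences are descriptions of 4 libraries.

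**Figure D2:**
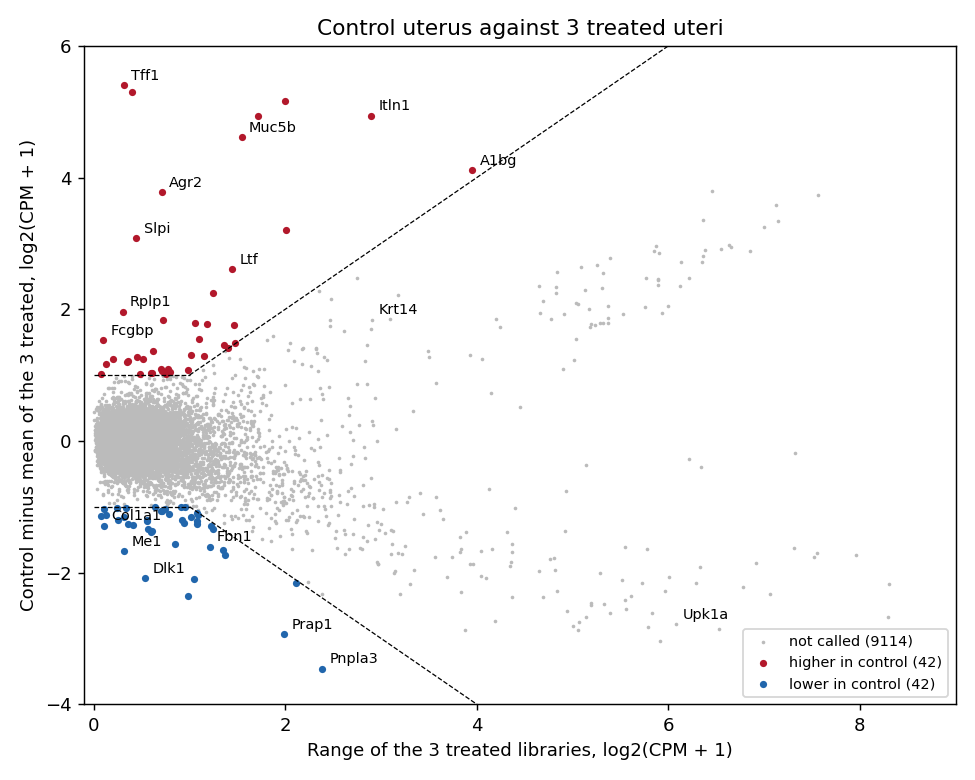
Each point is 1 of 9198 genes, with the range of the 3 treated uterus libraries on the x axis and control minus their mean on the y axis, both on the log2(CPM + 1) scale; dashed lines mark the call rule. Called genes, 42 red and 42 blue, lie beyond the dashed lines, at ranges up to 3.95 for A1bg, and Upk1a, a urothelial gene with a range of 6.08, lies outside the rule.

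The largest differences were in genes of mucus and mucosal defence, which were higher in control than in any treated uterus. Tff1, a trefoil peptide secreted with mucins, stood at 54.7 CPM in control and at 0.416, 0.411 and 0.136 CPM in BPA, KRG and both, which are 6, 5 and 2 counts. Control was 132-fold above the nearest treated library (95% interval 60.2 to 360). The intervals here are exact Clopper-Pearson intervals that cover counting error only, and they may be too narrow even for that, since the reads carry no molecular identifiers. LOC102631757, a noncoding gene that overlaps Tff1 by 1658 bases on chromosome 17, showed nearly the same values, 52.0, 0.416, 0.494 and 0.136 CPM. The use of strand in counting is not given in the sources used here, so the reads of this pair cannot be told apart.

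Muc5b, a gel-forming mucin, stood at 448 CPM in control and at 29.3, 18.8 and 9.38 CPM in BPA, KRG and both. Its difference was 4.61 with a treated range of 1.55, and control was 15.3-fold above BPA (13.9 to 16.9). Itln1, intelectin, a lectin that binds microbial sugars, was the most abundant of these genes in control, at 1605 CPM against 137, 55.1 and 17.5. The treated libraries differed among themselves by 2.90 for Itln1, but the difference from control was 4.94 and control was 11.7-fold above BPA (11.2 to 12.2). The near-identical copy Itlnb cannot be separated from Itln1 where reads match both. Agr2, a protein disulfide isomerase required for mucin folding in the gut, stood at 168, 15.4, 10.3 and 9.04 CPM, 10.9-fold above the nearest. Fcgbp, a large mucus protein, had 34.0 CPM in control and 11.6, 11.1 and 10.7 CPM in the treated uteri, a range of only 0.10 on the log2 scale. Galnt12, which starts O-glycan chains on mucins, stood at 65.2, 27.0, 30.6 and 22.2 CPM. In each of these 6 genes, Tff1 included, control was over 2-fold above the highest treated value.

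Genes of antimicrobial defence and protease inhibition were likewise higher in control. Ltf, the iron-binding lactotransferrin, stood at 793 CPM in control and 116, 226 and 82.6 CPM in the treated uteri, 3.51-fold above KRG (3.36 to 3.66). Slpi, secretory leukocyte protease inhibitor, had 52.7 CPM against 4.78, 6.75 and 4.69, and Wfdc18, of the same WAP domain family, had 83.9 CPM against 4.43, 0.658 and 1.36. Gp2, a glycoprotein that binds bacterial fimbriae, had 82.2 CPM against 3.81, 1.15 and 0.204. Pglyrp1, which binds peptidoglycan, had 31.0 CPM against 1.39, 7.40 and 1.09. Cfb, complement factor B, had 466 CPM against 103, 146 and 61.1. Neutrophils also make Ltf, Slpi and Pglyrp1. The neutrophil list, which holds Ltf, summed to 1172 CPM in control, 384 in BPA, 1656 in KRG and 336 in the library given both, and its median difference over 7 measured genes was 0.63 against BPA, -1.92 against KRG and 0.70 against both. S100a8, an abundant neutrophil gene, stood at 194, 93.9, 737 and 105 CPM. The neutrophil values were thus above BPA and the library given both in control but below KRG, and their part in these differences was not tested. Hepatocytes make Cfb at 1895 CPM in the control liver, and the median hepatocyte share of that level is 23.2 CPM, 4.97% of the control value.

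A1bg also passed the rule, at 43.1 CPM in control and 0.0693, 14.5 and 0 CPM in the treated uteri, but it is a plasma protein gene at 1663 CPM in the control liver. The median hepatocyte share of that level is 20.3 CPM, 47.2% of the control uterus value. When such shares were subtracted, with negative values set to 0, A1bg fell below the level filter of 10 CPM. It was lost for that reason, not for a smaller difference. In KRG the share, 48.4 CPM, exceeded the A1bg value itself. Of the 42 higher genes, 41 still passed after the subtraction, as did 40 of the 42 lower ones. Pafah2 and Acaa1b were lost because their treated ranges then exceeded the size of their differences. Only 8 of the 42 higher and 14 of the 42 lower genes were measured in liver, so the subtraction could change few calls. Foxa2, a forkhead factor of uterine glands, missed the rule at a difference of 1.37 with a range of 1.37, and was called after the subtraction. Pigr, the immunoglobulin receptor, stood at 192, 32.4, 161 and 28.2 CPM and Foxa3 at 25.8, 5.68, 12.5 and 1.43 CPM. Both are also liver genes, at 1105 CPM (Pigr) and 228 CPM (Foxa3) in the control liver. KRG was nearest to control for both, as for Alb, but lay below control, whereas for Alb it lay above. The hepatocyte part in these 2 genes was not tested.

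**Figure D3:**
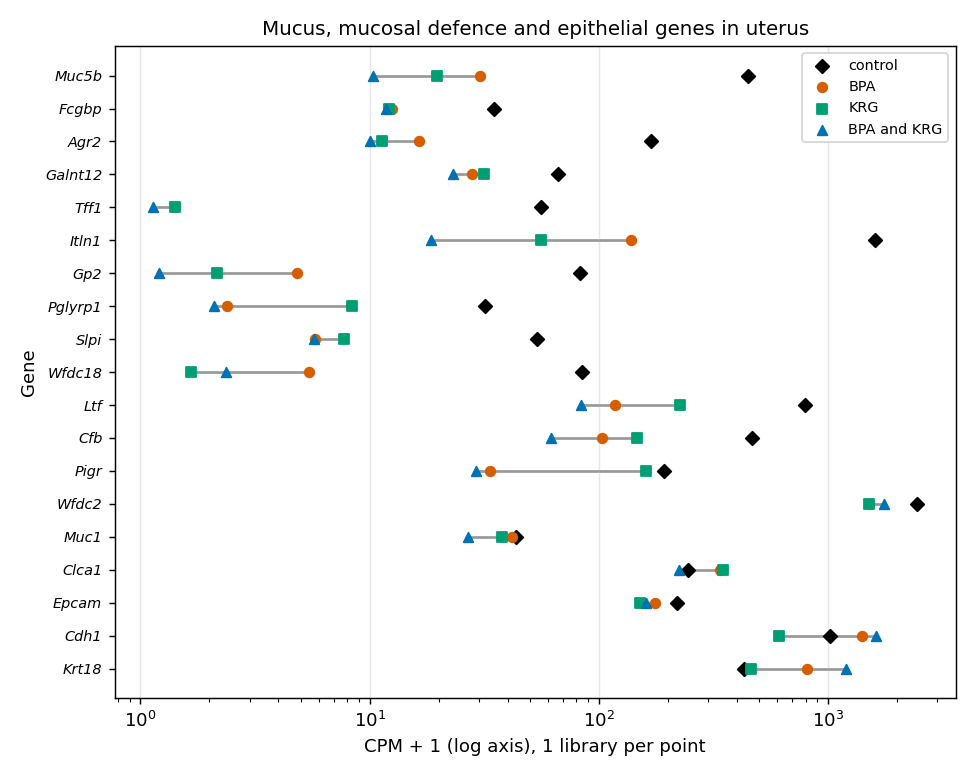
CPM + 1 (log axis) of mucus, mucosal defence and epithelial genes, 1 point per uterus library, with a grey line over the range of the 3 treated libraries. Tff1, Gp2, Wfdc18, Muc5b and Itln1 lie to the right of their treated range by the widest gaps among the genes plotted, while Cdh1 in control lies inside it.

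In the list of mucosal secretory genes, 20 of 36 members were measured, of which 10 were called higher and 0 lower, and 17 lay above all 3 treated libraries, beside 0.457% called higher and 22.5% above among all genes. The list was drawn up knowing that Itln1 and Muc5b differed, and 6 of the 20 had a treated mean under 10 CPM, so the count is not evidence of its own. Its median difference was 1.68, beside -0.01 over all genes measured, and 0.85 over members with no level filter. Against single libraries the median was 1.92 for BPA, 1.30 for KRG and 2.26 for both. Not every member was called, and Muc1 and Wfdc2 lay above all 3 treated libraries by less than the rule asks. Clca1, a goblet cell protease, stood at 245 CPM in control and 339, 349 and 223 CPM in the treated uteri, Muc1 at 42.6 and 41.0, 37.0 and 25.9 CPM, and Wfdc2 at 2456 and 1517, 1519 and 1752 CPM. Lyz2 was lower in control than in any treated library. A list of intestinal and goblet cell genes summed to 283 CPM in control and 306 to 395 CPM in the treated libraries, with 3 of 14 members measured, Clca1, Fcgbp and Krt20. Of its defining genes, Sis and Cdx2 were at 0 in all 4 libraries and Muc2 was between 0 and 0.272 CPM. Muc5ac was between 0 and 0.0693 CPM and Tff3 at 0.

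The list of uterine epithelium and gland genes summed to 5953 CPM in control and between 4445 and 7222 in the treated libraries. Cdh1, E-cadherin, stood at 1016, 1405, 612 and 1627 CPM, with control inside the treated range, and Epcam at 219, 175, 151 and 160 CPM. Of the 24 measured members, 11 lay above all 3 treated libraries and 3 below, beside 22.5% and 21.6% of all genes. The rule called 2 of them, both higher, beside 0.457% of all genes. Cxcl15, a chemokine of the mouse uterine glands, had 37.6, 19.7, 15.7 and 6.46 CPM with an interval of 1.65 to 2.22 around the 1.91-fold gap to BPA. Wnt7a, a luminal epithelial signal, had 49.3, 17.8, 25.8 and 18.0 CPM. In bulk tissue, fewer cells of a type and less RNA per cell cannot be told apart. Krt7, Krt18 and Cldn4, which urothelium shares, were highest in BPA and in the library given both; Cldn4 stood at 43.1, 148, 40.4 and 239 CPM.

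Of 24 measured genes on a list of estrogen-induced uterine genes, 5 were called, all higher in control, and 16 lay above all 3 treated libraries, beside 0.457% and 22.5% of all genes. Of the 24, Tff1 and Lcn2 had a treated mean under 10 CPM and passed the level filter through control, and 2 members had a control value under 10 CPM. The list was chosen with earlier results of these data known, and Tff1 and Ltf are also on the mucosal secretory list. These counts are therefore not evidence of their own. The median difference was 0.59. Tff1, Ltf and Wnt7a are described above. Ramp3, a co-receptor of the calcitonin receptor family, stood at 84.2 CPM in control and 31.9, 28.1 and 14.8 CPM in the treated uteri. Padi1, which converts arginine in proteins to citrulline, stood at 105 CPM against 33.7, 66.4 and 32.3. Greb1, a direct estrogen receptor target, was not called, with 34.1 CPM against 15.03, 30.1 and 8.09, since KRG lay close to control. The receptor genes were higher in control by less than the rule asks: Esr1, estrogen receptor alpha, at 190 CPM against 145, 160 and 89.0, and Pgr, the progesterone receptor, at 119 CPM against 71.5, 84.3 and 49.6. Among 12 measured progesterone target genes, 2 were called higher and 6 lay above all 3 treated libraries. The called ones were Lrp2 (megalin), at 32.6 CPM against 14.5, 13.2 and 14.1, and Gli1, a hedgehog pathway factor, at 78.9 CPM against 51.1, 29.5 and 34.3. None of these lists had a member called lower.

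Rplp1, a protein of the large ribosomal subunit, had the largest gap in CPM among called genes, with 7553 CPM in control and 1778, 2193 and 1862 CPM in the treated uteri. On the log2(CPM + 1) scale its difference was 1.96. Control was 3.44-fold above KRG (3.40 to 3.49) and the treated range was 0.30. It was the only 1 of 68 measured ribosomal protein genes to be called, beside 0.913% of all genes. The list summed to 108872 CPM in control, 79362 in BPA, 108663 in KRG and 74570 in the library given both, so the other ribosomal protein genes placed control beside KRG. In liver the high library was another one, with 423 CPM in control, 1831 in BPA, 413 in KRG and 353 in the library given both. Processed copies of ribosomal protein genes are common, and how reads with several matches were counted is not given in the sources used here, so the Rplp1 values are uncertain.

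Other genes higher in control included epithelial and transport genes: Cldn22, a claudin, at 24.9 CPM against 4.78, 8.56 and 5.78, Slc7a11, the cystine transporter, at 29.7 CPM against 8.94, 14.7 and 6.32, and Clic6 at 26.3 CPM against 7.41, 12.1 and 3.74. P2ry1, a purine receptor, stood at 89.2 CPM and at 38.0, 39.5 and 34.2 CPM in the treated uteri. Sall1, a developmental transcription factor, stood at 173 CPM against 81.5, 78.2 and 63.2. DNA replication and repair genes Cdt1 (37.0 CPM against 14.7, 18.2 and 20.9), Hells (21.1 against 9.70, 10.3 and 9.93) and Ung (33.9 against 10.2, 16.1 and 12.2) also passed. On the cell cycle list 0 of 20 measured genes were called and 7 lay above all 3 treated libraries, with a median of 0.14. Among all genes 0.913% were called and 22.5% lay above, so 0 called says little about a list of this size. Ccr2, a chemokine receptor of monocytes, stood at 90.2 CPM against 51.7, 32.7 and 19.5, while the macrophage list summed to 558 CPM in control and 545 to 695 in the treated libraries. Of 5 measured MHC class II genes, 4 lay above all 3 treated libraries and 0 were called, beside the same 22.5% and 0.913%.

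Fibrillar collagen genes were the clearest group lower in control. Col1a1, a chain of type I collagen, stood at 268 CPM in control and at 668, 671 and 623 CPM in BPA, KRG and both. The treated libraries lay within 0.11 of each other on the log2 scale, the difference was -1.29, and the nearest treated library was 2.33-fold above control (2.24 to 2.42). Col1a2, the other chain, stood at 429 CPM against 1133, 769 and 1117. Col5a1 and Col5a2, chains of type V collagen that start fibrils, stood at 39.2 CPM against 66.1, 111 and 72.4, and at 25.1 CPM against 54.9, 55.03 and 46.4. Col3a1 was lower in control than in any treated library, at 402 CPM against 702, 829 and 734, but its difference of -0.90 did not reach the rule. Of 23 measured collagen genes, 0 were called higher and 4 lower, 16 lay below all 3 treated libraries and 0 above, beside 0.457% called lower and 21.6% below among all genes. The median difference was -0.57, and against single libraries -0.68 for BPA, -0.70 for KRG and -0.30 for both. The list was drawn up knowing that Col1a1 differed. Of the 23, 5 had a control value under 10 CPM and passed the level filter through the treated libraries. The counts are therefore not evidence of their own. Adipose tissue and bladder wall also hold collagen. The adipocyte sum was above control in KRG, and the bladder sum in BPA and in the library given both. Of 13 measured adipocyte genes, 3 (23.1%) were above control in all 3 treated libraries, near the 21.6% among all genes. The part of these tissues in the collagen values was not tested.

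Among other matrix genes, Fbn1 (fibrillin), Eln (elastin) and Thbs2 (thrombospondin) were called lower, 3 of 38 measured glycoproteins and proteoglycans, beside 0.457% of all genes. As a group these 38 differed less than the collagens, with a median of -0.23, and of 0.08 against the library given both. Of the 38, 14 lay below all 3 treated libraries and 5 above, beside 21.6% and 22.5% of all genes. The list summed to 5961 CPM in control, inside the treated 4695 to 6343 CPM. Fbn1 stood at 29.6 CPM in control and 58.3, 136 and 98.9 CPM in the treated uteri, Eln at 17.0 against 34.4, 29.4 and 48.4, and Thbs2 at 23.1 against 60.4, 38.5 and 45.8. Adamts2, which cleaves the propeptide of collagens I, II and III, stood at 40.6 CPM against 91.2, 87.7 and 92.1, with the smallest treated range of the called genes, 0.07. It was 1 of 20 measured collagen processing genes called, and Loxl2, a crosslinking enzyme, just missed at 10.1 CPM against 21.3, 21.5 and 18.4. Podn, a small leucine-rich proteoglycan, stood at 26.6 CPM against 77.5, 58.3 and 64.3. The TGF-beta responsive genes Ctgf (38.4 CPM against 122, 62.9 and 102) and Pmepa1 (73.3 CPM against 139, 205 and 177) were also lower, but Ctgf was the only called gene of 27 measured on the pathway list, whose median was -0.14. Fibroblast markers did not separate control: the list summed to 2751 CPM against 2511 to 3221, with 1 of 20 called, Dlk1.

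**Figure D4:**
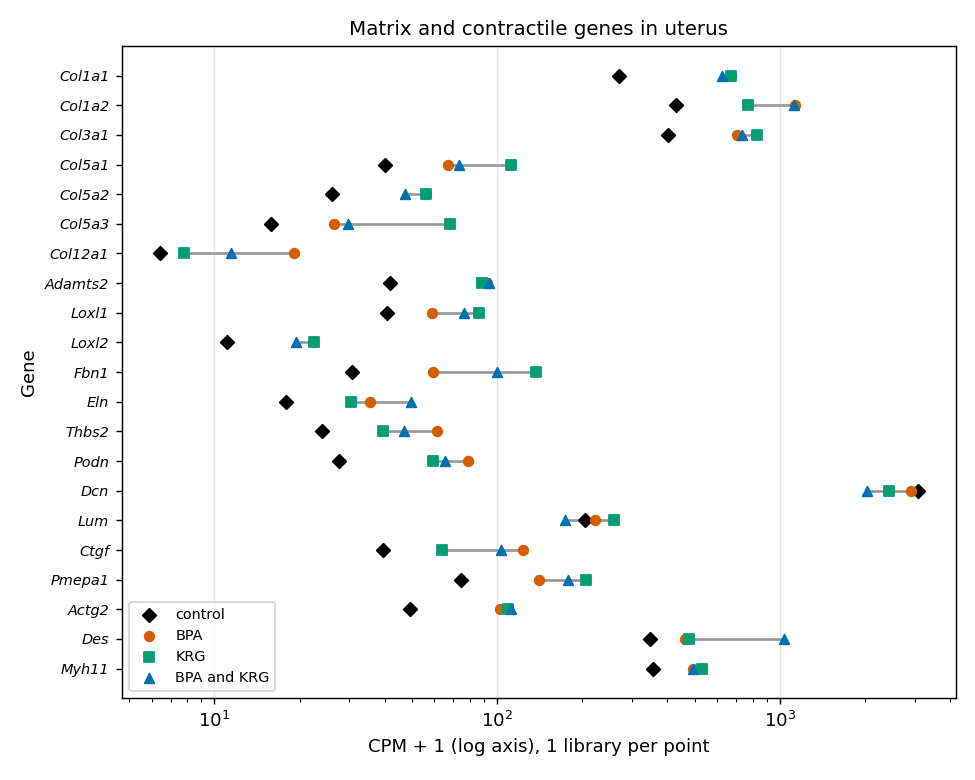
CPM + 1 (log axis) of matrix and contractile genes, 1 point per uterus library, with a grey line over the range of the 3 treated libraries. Control lies left of the treated range for Col1a1, Col1a2, Col3a1, Col5a1, Col5a2 and Adamts2, and at or above its right end for Dcn.

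Among 20 measured smooth muscle genes, 1 was called lower in control and 0 higher, beside 0.457% of all genes in each direction. The called gene was Actg2, enteric smooth muscle actin, which stood at 48.3 CPM in control and 102, 108 and 111 CPM in the treated uteri. Of the others, Myh11, smooth muscle myosin, stood at 355 CPM against 493, 528 and 490, and Tagln at 179 against 251, 291 and 249. Acta2, smooth muscle alpha actin, stood at 1339 CPM against 1312, 2142 and 1609, with control inside the treated range. Of the 20, 13 lay below all 3 treated libraries and 0 above, beside 21.6% and 22.5% of all genes, and the summed level was 10623 CPM against 12201 to 14688. Bladder wall also holds smooth muscle, and bladder markers were above control in BPA and in the library given both but below it in KRG; their part in the smooth muscle values was not tested. The nearest treated library to control for Actg2 was BPA, 2.10-fold above (1.92 to 2.31).

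Genes of lipid metabolism were also among those lower in control. Pnpla3, a lipase of lipid droplets regulated by feeding, had the largest negative difference, with 4.90 CPM in control and 28.1, 151 and 61.1 CPM in the treated uteri. Me1, malic enzyme, which makes NADPH for fatty acid synthesis, stood at 67.5 CPM against 189, 236 and 233, with a treated range of 0.32. Slc25a1, the mitochondrial citrate carrier, stood at 26.8 CPM against 38.2, 74.9 and 57.9, and Adig, an adipocyte gene, at 4.24 CPM against 12.0, 55.03 and 16.5. Fabp5, a fatty acid binding protein, stood at 41.3 CPM against 88.8, 109 and 135. On a list of fatty acid synthesis genes, assembled after these values were seen, 3 of 19 measured were called lower, beside 0.457% of all genes. Of the 19, 3 had a control value under 10 CPM, Pnpla3 among them, and passed the level filter through the treated libraries. The list median was 0.02 against BPA, -1.13 against KRG and -0.35 against both. Fasn, fatty acid synthase, stood at 432 CPM in control and 425, 1362 and 737 CPM in the treated uteri. Adipoq, which adipocytes secrete, followed the KRG value at 417, 283, 1559 and 415 CPM, so the high lipid values in KRG came with high adipocyte markers. The adipocyte sum was 5970 CPM in BPA and 5884 in the library given both against 6297 in control, but Fabp4, the adipocyte fatty acid binding protein, stood at 1879, 2320, 6337 and 2690 CPM, above control in all 3 treated libraries. The part of adipocyte transcripts in the lipid gene values was not tested.

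Further genes lower in control were of varied function. Dlk1, a Notch-like protein of immature stromal and adipose cells, stood at 13.2 CPM against 50.5, 73.8 and 55.5, 3.84-fold below BPA (3.26 to 4.54). Prap1, an acidic protein known from the pregnant uterus, stood at 4.97 CPM against 22.4, 92.1 and 42.6. Aldh1a7, an aldehyde dehydrogenase close in sequence to Aldh1a1, stood at 7.53 CPM against 28.3, 56.8 and 47.9. Saa3, an acute phase protein, stood at 2.78 CPM against 22.0, 15.4 and 10.1. Acaa1b, a peroxisomal thiolase, stood at 43.1 CPM against 121, 99.1 and 257, and its hepatocyte share in control was 26.1 CPM. Sizes were smaller for Optn, Hspb6, Dock8, Adap1 and Kazald1, all with differences between -1.66 and -1.33. Of the 42 lower genes, 21 were highest in the library given both, 14 in KRG and 7 in BPA.

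The 3 treated libraries differed from each other as much as from control. Genes at least 2-fold higher and lower in control numbered 170 and 255 against BPA, 110 and 268 against KRG, and 313 and 498 against both. Between treated libraries, KRG and both differed by 2-fold at 505 and 556 genes, BPA and KRG at 315 and 324, and BPA and both at 165 and 126. The standard deviation of the log2 ratio over genes was lowest for BPA and both, 0.45, followed by control and KRG, 0.48, and highest for KRG and both, 0.93. Control and KRG, and BPA and both, were thus the closest pairs, which are also the pairs that the bladder and hepatocyte transcripts form; the part of these transcripts in the pairing was not tested. These comparisons share libraries. KRG was the nearest treated library for 23 of the 42 higher genes and 22 of the 42 lower ones, BPA for 16 and 16, and both for 3 and 4. Without the KRG library 172 genes were higher and 317 lower, 37 and 39 of the 42 and 42 among them.

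**Figure D5:**
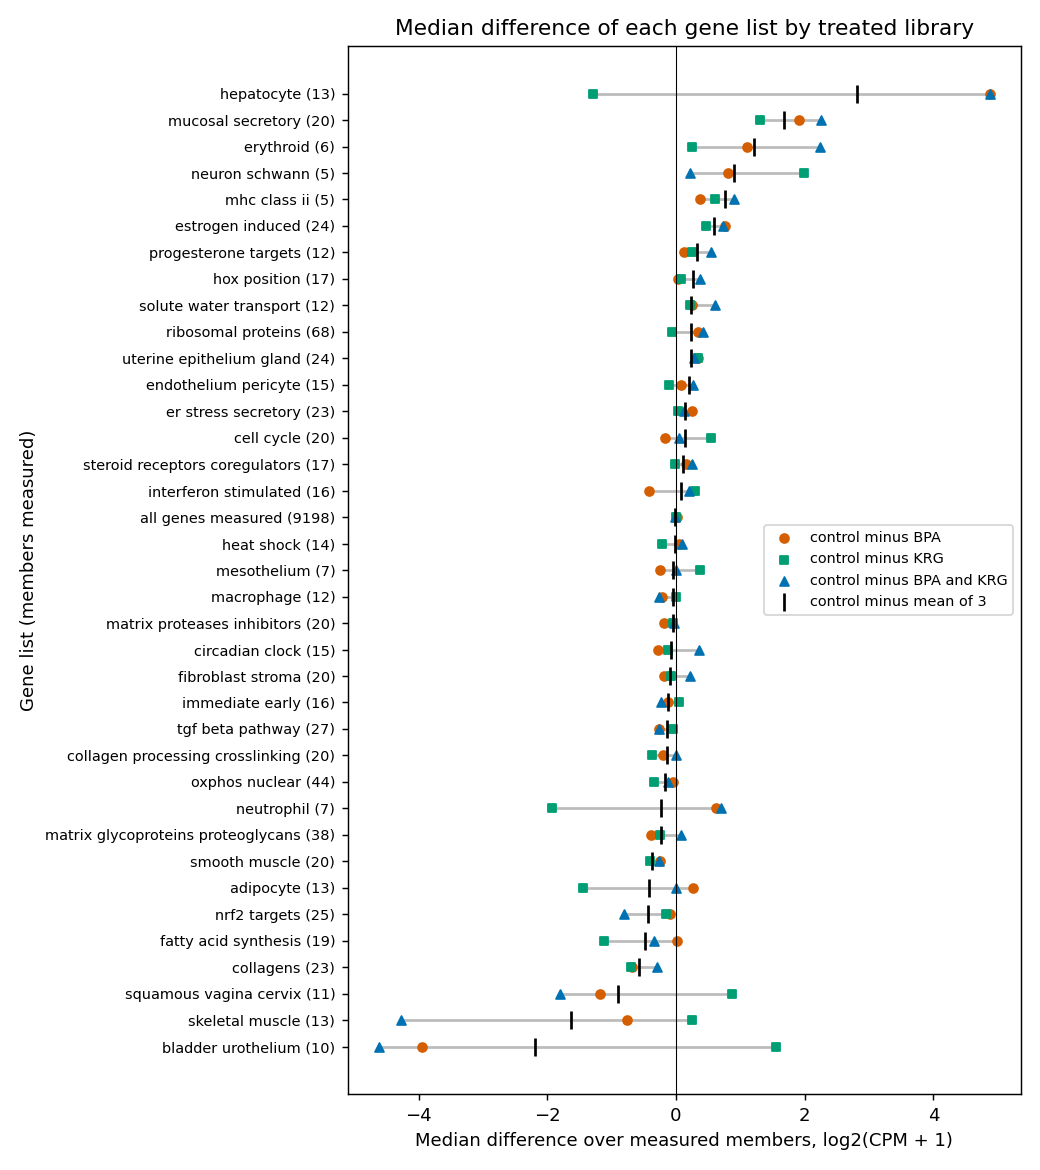
Median difference on the log2(CPM + 1) scale over the measured members of each gene list (number in brackets), control minus each treated library, with a black bar for control minus the mean of the 3. The mucosal secretory list lies right of 0 and the collagen list left of 0 for all 3 treated libraries, whereas the hepatocyte, bladder and adipocyte lists lie on both sides.

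Lists of general cell functions had 0 to 2 called genes, and at a background of 0.913% a count of 0 says little about lists of these sizes. Nuclear genes of oxidative phosphorylation had 0 of 44 called and 21 below all 3 treated libraries, beside 0.913% called and 21.6% below among all genes, with a median of -0.17. Targets of NRF2, the oxidative stress factor, had 1 called higher (Slc7a11) and 1 lower (Me1) of 25, with a median of -0.43 and -0.81 against the library given both. ER stress and secretory pathway genes had 0 of 23 called and a median of 0.15, heat shock genes 0 of 14 and -0.02, and circadian clock genes 0 of 15 and -0.07. Hbb-bs, Hba-a1 and the other measured erythroid genes had a median of 1.21, with the lowest level in the library given both, where the list summed to 836 CPM against 4907 in control. T cell and mast cell lists had no measured member, with 24.3 and 22.1 CPM summed in control.

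In liver, with the same rule, 16 of 6705 genes were higher (0.239%) and 28 lower (0.418%) in control. Of the 42 genes higher in the control uterus, 8 were measured in liver and 0 were called there in either direction. Of the 42 lower ones, 14 were measured, 0 were called in the same direction and 2, Akr1c19 and Fabp5, in the opposite one. Akr1c19, an aldo-keto reductase, stood at 66.3 CPM in the control liver and 39.5, 24.9 and 23.4 CPM in the treated livers, and at 5.04 against 19.8, 8.88 and 12.4 CPM in uterus. Tff1, Muc5b, Agr2, Itln1, Gp2, Wfdc18 and Ltf were under 1 CPM in the control liver.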

How the data were processed

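The authors deposited a separate file of raw counts for each library, with 23282 rows identified by gene symbol; the 44 rows with a repeated symbol were kept apart. Per the submitters' processing notes, Bowtie2, edgeR and the mm10 build were used, without versions or roles. The counter, the use of strand and the treatment of reads with several matches are steps not given in the sources used here. Counts of the 4 uterus libraries were scaled to CPM with edgeR 4.0.16 under R 4.3.3 (TMM, the trimmed mean of M values), and differences taken on log2(CPM + 1) for genes averaging 10 CPM or more. edgeR's quasi-likelihood test (2-sided, Benjamini-Hochberg adjusted over 9198 genes, threshold 0.05) and DESeq2 1.42.0 compared 1 library with 3. Each group has a single library, so no value has a replicate check, and p-values measure only the spread between these libraries. The members, the 40 gene lists and 2 added lists (fatty acid synthesis and hepatocyte) were chosen with earlier results of these data known. Genes named are the 15 higher and 15 lower with the largest difference among those called, called members of each list or otherwise up to 4 with the largest differences, and always Itln1, Muc5b, Col1a1, Col1a2, Col3a1, Esr1, Pgr, Ltf and Greb1. Others named, such as Epcam, Cdh1, Clca1, Fasn, Krt7, Ccr2, Podn and Pmepa1, were chosen after their values were seen. Promoters are RefSeq entries, and exon overlap is from GENCODE M21, which shares the build of mm10. The alternatives tried were other scalings (DESeq2 size factors, total counts), pseudocounts and level filters, leaving out each treated library, a 2-fold gap to the nearest treated library and, added after seeing the data, leaving out members of 5 marker lists and subtracting the median hepatocyte share of each liver level.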

Additional observations from a re-analysis of the deposited data

Results flagged for a closer look

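Of the 84 called genes, 8 of the higher and 14 of the lower ones were measured in liver, and 5 of these lay beyond all 3 treated libraries in opposite directions in the 2 tissues. The difference between the tissues was not tested, and in liver control lay above all 3 treated libraries for 22.4% of genes and below them for 24.4%. Akr1c19 and Fabp5 were called in both tissues. Akr1c19, an aldo-keto reductase, stood at 5.04 CPM in the control uterus against 19.8, 8.88 and 12.4 CPM in BPA, KRG and both, and its liver difference was 1.19 on the log2(CPM + 1) scale. Fabp5, a fatty acid binding protein, stood at 41.3 CPM in the control uterus against 88.8, 109 and 135 CPM, and at 130 CPM in the control liver against 41.5, 74.6 and 65.0 CPM, a liver difference of 1.14. The other 3 were not called in liver. Col1a2, a fibrillar collagen chain lower in the control uterus, stood at 14.4 CPM in the control liver against 11.5, 12.8 and 9.30 CPM, a difference of 0.35 that is smaller than the treated range of 0.42. Ccdc53, also lower in the control uterus, had a liver difference of 0.38 beside a treated range of 0.98. Gstm7, a glutathione transferase higher in the control uterus at 19.9 CPM against 6.79, 8.88 and 8.77, had a liver difference of -0.22 beside a treated range of 0.21.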

How the results depend on the processing

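With DESeq2 size factors and total count scaling, and with a pseudocount of 0.25 CPM, the counts of called genes stayed within 1.5 times of 42 higher and 42 lower. A pseudocount of 5 CPM left 23 lower. Counts were 125 higher and 92 lower with a mean of at least 1 CPM, 143 and 92 with no filter, and 25 and 18 when control had to lie 2-fold outside the nearest treated library. Leaving out 1 treated library gave 45 to 172 higher and 51 to 317 lower, with 67 higher and 62 lower without BPA. Subtracting the hepatocyte share, added after seeing the data, gave 42 higher and 45 lower. edgeR called 0 genes, DESeq2 23, and edgeR 0 to 125 when 1 treated library was left out, the 125 without KRG. Genes 2-fold higher in control, with a mean of at least 1 CPM and with no filter, numbered 444 and 490 against BPA, 281 and 327 against KRG, and 725 and 783 against both; lower ones numbered 501 and 528, 491 and 534, and 933 and 997. With a pseudocount of 5 CPM, 61 were higher against KRG. Lists with a median of at least 0.5 in size numbered 10 of 36, and 7 to 14 under the alternatives. No named gene or list with a called value changed direction under these alternatives. No paired analysis was possible because each group holds 1 library and the groups share only the number 1. Depth limits genes such as Tff1, with 2 to 6 counts in each treated library, whose folds move with the pseudocount.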
